A study of Homo sapiens with 6 samples.

Results

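The mitochondrial ribosomal protein genes encode the protein subunits of the mitoribosome, the ribosome inside mitochondria. They were taken from the deposited table by symbol: every row named MRPL or MRPS followed by a number, without the 76 rows that are numbered pseudogenes. The rule gave 78 of the 35793 genes listed. Of these, 51 encode subunits of the large particle of the mitoribosome and 26 subunits of its small particle. MRPS36 bears the name but is known as a component of the 2-oxoglutarate dehydrogenase complex, so it was counted under neither particle.

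RNA was measured in cardiomyocytes made from human induced pluripotent stem cells and taken on day 15 of differentiation. The wild type was the unedited WTC11 line, an established stem cell line. The knockout was a WTC11 derivative made homozygous for a disrupted STK25, the gene of a serine/threonine kinase, by CRISPR/Cas9. Each of the 2 genotypes had 3 biological replicates and no further treatment. The knockout was 1 cell line, so the edit and any other difference between the lines cannot be told apart.

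Mitochondria carry a small genome whose mRNAs encode core subunits of the respiratory chain and of ATP synthase. These mRNAs are translated only by the mitoribosome, whose proteins are all encoded in the nucleus, made in the cytosol and imported. Part of the subunits descend from bacterial ribosomal proteins and part are specific to mitochondria. Heart muscle is among the tissues richest in mitochondria, and mutations in several of these genes cause cardiomyopathy.

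Each value is a normalized count, that is, a whole number per gene, called reads here, divided by 1 factor per library. The 6 libraries held from 22443904 to 53224112 reads. STK25 fell from a mean of 8119 to 3720 normalized counts, a log2 fold change of -1.12 (SE 0.19, limma adjusted p = 0.00903). All 10 cardiomyocyte markers were above the filter on low values, and their summed level was 868501 to 921871 in the wild type and 1045594 to 1083459 in the knockout, with 0 of 10 called higher and 1 lower, NKX2-5. All 10 proliferation markers had negative fold changes, 6 of them called, with sums of 51163 to 57025 and 26241 to 30061. Fibroblast and stromal markers summed to 13007 to 26601 and 8520 to 17310 (4 of 10 called higher and 1 lower). Neural markers summed to 4558 to 7867 and 7077 to 16891 (3 of 5 tested called higher), pluripotency markers to 1137 to 1616 and 3086 to 4578 (1 of 5 higher), endoderm and liver markers to 1671 to 3009 and 1493 to 1663 (1 of 4 higher, 1 lower), and endothelial markers to 174 to 477 and 418 to 584 (0 of 4). NES held most of the neural sum, and of the listed markers FOXA2 was at 0 in all libraries. Of all genes tested, 5.97% were called higher and 6.79% lower. The part of these markers in the differences below was not tested. In bulk RNA fewer cells of a type and less RNA per cell cannot be told apart.

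Wild-type replicate 2 and knockout replicate 1 stood apart from the other libraries of their genotype, and mitoribosomal genes were high in both. Summed over the 78 genes, the wild-type libraries held 335682, 505674 and 318035 normalized counts in replicates 1, 2 and 3. The knockout libraries held 734103, 380015 and 475293. The highest sum, that of knockout replicate 1, was 2.31 times the lowest, and wild-type replicate 2 lay above knockout replicates 2 and 3. The genotypes overlapped in this sum. Fold changes without both libraries are therefore given for the genes called and for those with the largest and smallest values.

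Of the 78 genes, 7 were called different between the genotypes (limma, Benjamini-Hochberg adjusted p under 0.05 over the 15536 genes tested), and all 7 were higher in the knockout. They were MRPL41, MRPS11, MRPL47, MRPS5, MRPS9, MRPS30 and MRPS18B. The share of 8.97% lay below the 12.8% of all genes tested that were called in either direction. For calls in the higher direction alone the background was 5.97%, and for calls in the lower direction, of which the family had 0, it was 6.79%. At an unadjusted p under 0.05 there were 14 members (17.9%, against 27.5% of all genes). The quasi-likelihood test of edgeR, applied to recovered reads, called 5 of the 78 (6.41%, against 12% of all genes), all of them among the 7, and DESeq2 called 11, against 20.7%.

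**Figure D1:**
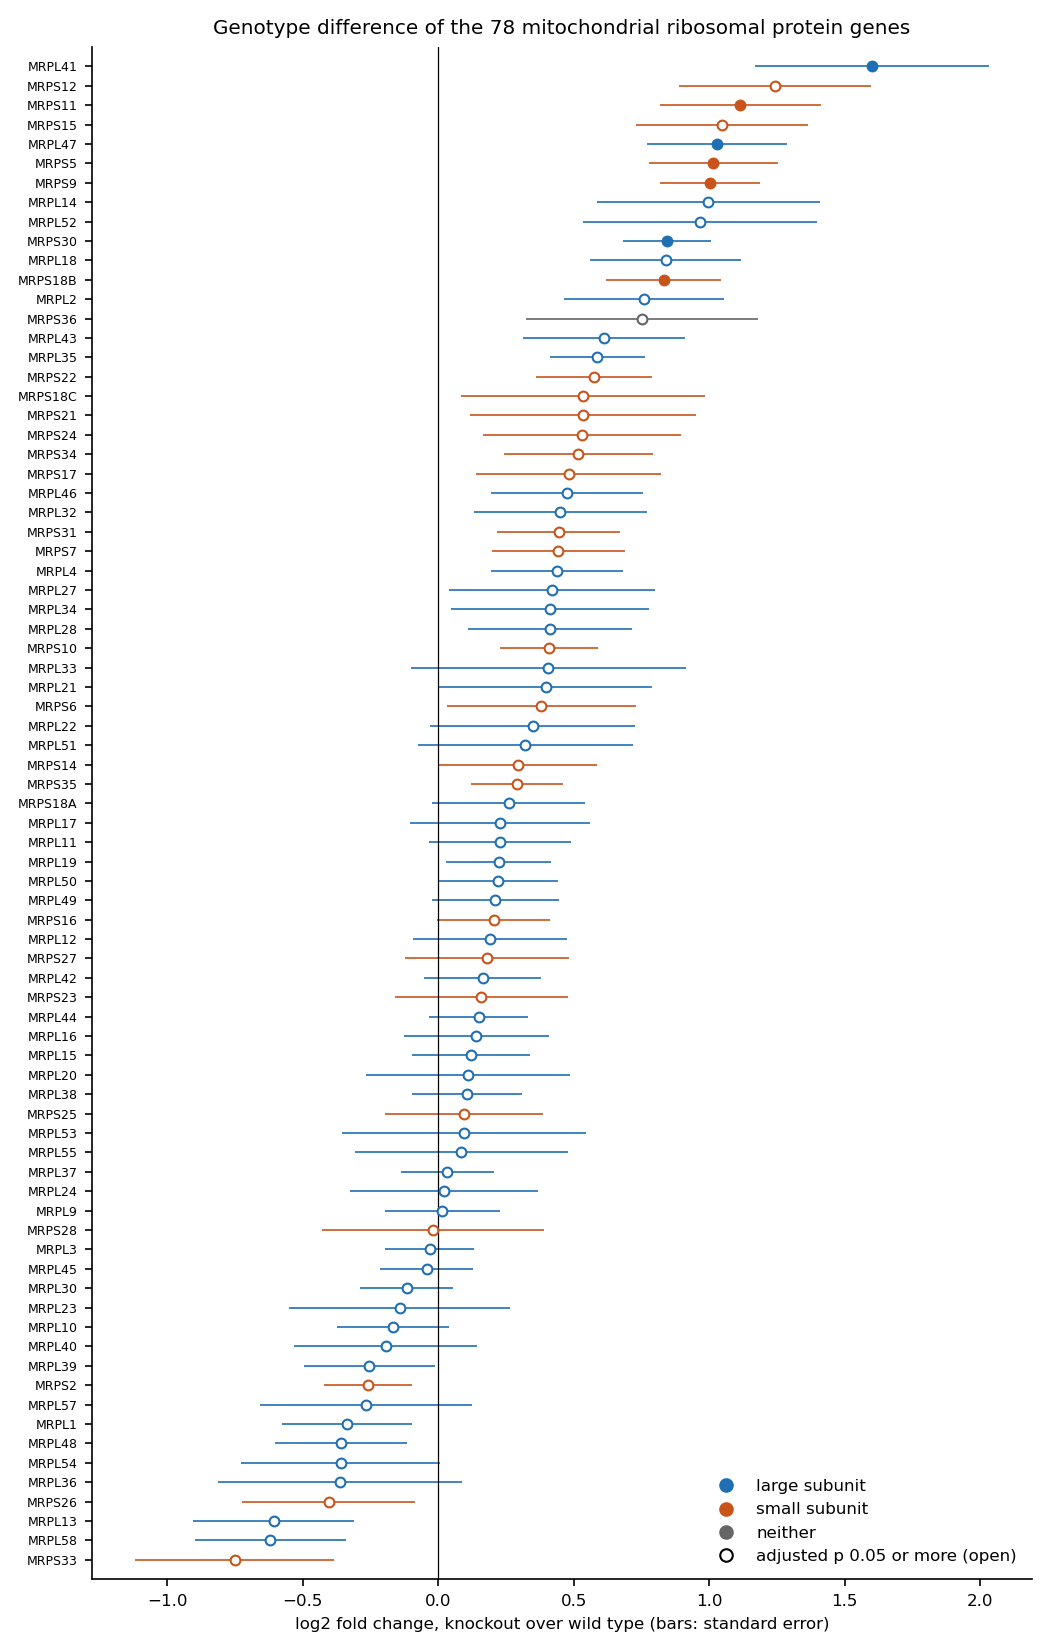
Each row is 1 of the 78 genes, and the horizontal axis is the fitted log2 fold change of knockout over wild type with its standard error as a bar. Filled points had an adjusted p under 0.05. The values run from -0.75 (MRPS33) to 1.60 (MRPL41), 60 of the 78 are positive, and the 7 filled points are all on the right.

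The promoters of MRPS18B, MRPS30, MRPL47 and MRPS9 are printed because these genes were among the 7 and their promoters differ in which factor motifs they hold. Each runs from 250 bases before the RefSeq start to 50 after it on GRCh38.p14, written along the gene's own strand. Capitals mark the motifs searched on both strands: the core of the NRF1 site (GCGCATGC), an ETS site as bound by GABPA (CCGGAAG) and a YY1 site (AAGATGGC). None of the 3 strings contains another.
MRPS18B, chr6:30617590-30617889, plus strand: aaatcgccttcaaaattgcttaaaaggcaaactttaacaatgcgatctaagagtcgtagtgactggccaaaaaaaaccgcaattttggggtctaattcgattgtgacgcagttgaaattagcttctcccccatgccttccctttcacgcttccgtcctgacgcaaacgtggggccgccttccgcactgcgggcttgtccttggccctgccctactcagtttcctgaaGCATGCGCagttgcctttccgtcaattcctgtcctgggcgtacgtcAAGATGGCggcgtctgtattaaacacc
MRPS30, chr5:44808697-44808996, plus strand: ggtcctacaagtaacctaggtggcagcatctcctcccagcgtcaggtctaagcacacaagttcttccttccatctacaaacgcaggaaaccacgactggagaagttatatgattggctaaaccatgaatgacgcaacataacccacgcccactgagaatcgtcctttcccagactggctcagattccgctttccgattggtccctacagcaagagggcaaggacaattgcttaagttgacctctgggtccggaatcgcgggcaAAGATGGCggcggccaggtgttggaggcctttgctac
MRPL47, chr3:179604589-179604888, minus strand: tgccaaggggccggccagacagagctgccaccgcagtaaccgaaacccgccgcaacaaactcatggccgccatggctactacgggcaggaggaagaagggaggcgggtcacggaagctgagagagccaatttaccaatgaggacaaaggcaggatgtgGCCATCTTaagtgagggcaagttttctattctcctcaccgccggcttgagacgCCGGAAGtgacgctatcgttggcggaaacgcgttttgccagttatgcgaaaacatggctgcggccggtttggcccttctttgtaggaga
MRPS9, chr2:105037819-105038118, plus strand: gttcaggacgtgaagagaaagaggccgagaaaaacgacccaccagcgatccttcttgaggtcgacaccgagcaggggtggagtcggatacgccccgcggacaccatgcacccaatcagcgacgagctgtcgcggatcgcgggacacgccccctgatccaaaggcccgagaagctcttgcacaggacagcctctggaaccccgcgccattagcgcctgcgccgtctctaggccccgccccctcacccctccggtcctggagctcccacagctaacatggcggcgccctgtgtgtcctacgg

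NRF1, GABPA and YY1 are transcription factors known for binding promoters of nuclear genes for mitochondrial proteins. In the RefSeq promoters, which were matched for 69 of the 78 genes, the YY1 string was present in 20, against 2.89% of all 35116 promoters of the same length. The ETS string was present in 29 (42.0%), against 10.3%, and the NRF1 core in 6 (8.70%), against 3.05%. The 35116 promoters were not limited to the 15536 genes tested, and no share was computed over tested genes alone. At least 1 of the 3 was found in 42 (60.9%, against 14.9%). Of the 7 called genes 3 held any of them: MRPS18B has the NRF1 core and the YY1 string, MRPS30 the YY1 string, and MRPL47 the ETS and YY1 strings. The promoters of MRPS9, MRPS5, MRPS11 and MRPL41 held none, so at the RefSeq starts the called genes share no motif of the 3. The GENCODE starts of MRPS5, MRPS11 and MRPL41 lie outside the windows searched, and promoters at those starts were not searched. The genes not matched were MRPL2, MRPL10, MRPL13, MRPL15, MRPL21, MRPL23, MRPL35, MRPS28 and MRPS36.

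Among the called small-subunit genes, MRPS9, which encodes the counterpart of bacterial protein S9, had the lowest adjusted p of the family. It lies on chromosome 2 from 105037983 to 105099960 (GENCODE 29 on GRCh38, as for the genes below). Its libraries had 4423, 4982 and 4206 normalized counts in the wild type and 10102, 7903 and 9308 in the knockout. The lowest knockout library lay above the highest wild-type library. Its mean was 4537 ± 400 in the wild type and 9104 ± 1113 in the knockout (SD, n = 3), and its log2 fold change 1.00 (SE 0.18, limma adjusted p = 0.0127). Without wild-type replicate 2 and knockout replicate 1 it was 0.99.

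MRPS5 (chromosome 2, 95087207 to 95149434), the counterpart of bacterial S5, had 5034, 6921 and 5282 normalized counts in the wild type and 14817, 9357 and 10964 in the knockout. The genotypes did not overlap, and the highest library of each was one of those that stood apart. The mean rose from 5746 ± 1026 to 11713 ± 2806 (SD, 3 libraries each), a log2 fold change of 1.02 (SE 0.24, limma adjusted p = 0.0301), and 0.97 without both libraries that stood apart. MRPS11 (chromosome 15, 88467453 to 88480773), the counterpart of bacterial S11, had 4474, 6200 and 3921 in the wild type and 14947, 7590 and 9738 in the knockout. Its genotypes did not overlap either. Its log2 fold change was 1.11 (SE 0.30, limma adjusted p = 0.0473), and 1.04 without both libraries.

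MRPS18B (chromosome 6, 30617709 to 30626395) is one of the paralogs that mitochondria have in place of a single bacterial S18. It had 5098, 6808 and 5388 normalized counts in the wild type and 12330, 8796 and 9717 in the knockout, with no overlap. The mean rose from 5764 ± 915 to 10281 ± 1833 (SD, 3 libraries each), a log2 fold change of 0.83 (SE 0.21, limma adjusted p = 0.0414), and 0.82 without both libraries. Its paralogs MRPS18C, of the small particle, and MRPS18A, which is found in the large one, were not called. MRPS18C had 2583, 5821 and 2712 in the wild type and 9134, 3272 and 4152 in the knockout (log2 fold change 0.54, SE 0.45, limma adjusted p = 0.502). MRPS18A had 2933, 4733 and 2645 and then 5201, 3275 and 3695 (0.26, SE 0.28, limma adjusted p = 0.618). In both, wild-type replicate 2 exceeded knockout replicates 2 and 3. Without both libraries MRPS18C was 0.48 and MRPS18A 0.32. The difference between the paralogs was not tested.

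MRPS30, named for the small particle but found in the large one, had the smallest spread of the called genes. This gene on chromosome 5 (44808925 to 44820428) had 2784, 2958 and 2865 normalized counts in the wild type and 5180, 4972 and 5297 in the knockout. Wild-type replicate 2 and knockout replicate 1 differed from the others of their genotype by 0.067 and 0.013 on the log2 scale here. The mean rose from 2869 ± 87.0 to 5150 ± 164 (SD, 3 libraries each), a 1.79-fold rise and a log2 fold change of 0.84 (SE 0.16, limma adjusted p = 0.0147). It was 0.86 without both libraries.

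MRPL47 (chromosome 3, 179588285 to 179604654), the counterpart of bacterial L29 on the large particle, had 4708, 6349 and 4201 normalized counts in the wild type and 13646, 8135 and 9627 in the knockout. The genotypes did not overlap, and the log2 fold change was 1.03 (SE 0.26, limma adjusted p = 0.0390), or 0.99 without both libraries. MRPL41 (chromosome 9, 137551199 to 137552555), a subunit specific to mitochondria, had the largest fold change of the family and the highest adjusted p of the 7. It had 8569, 14028 and 7382 normalized counts in the wild type and 53715, 17276 and 26758 in the knockout. Knockout replicate 1 was 2.50 times the geometric mean of the other 2 knockout libraries. The mean rose from 9993 ± 3545 to 32583 ± 18905 (SD, 3 libraries each), a log2 fold change of 1.60 (SE 0.43, limma adjusted p = 0.0494). Without wild-type replicate 2 and knockout replicate 1 it was 1.43, and without knockout replicate 1 alone 1.16 (limma adjusted p = 0.0562).

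**Figure D2:**
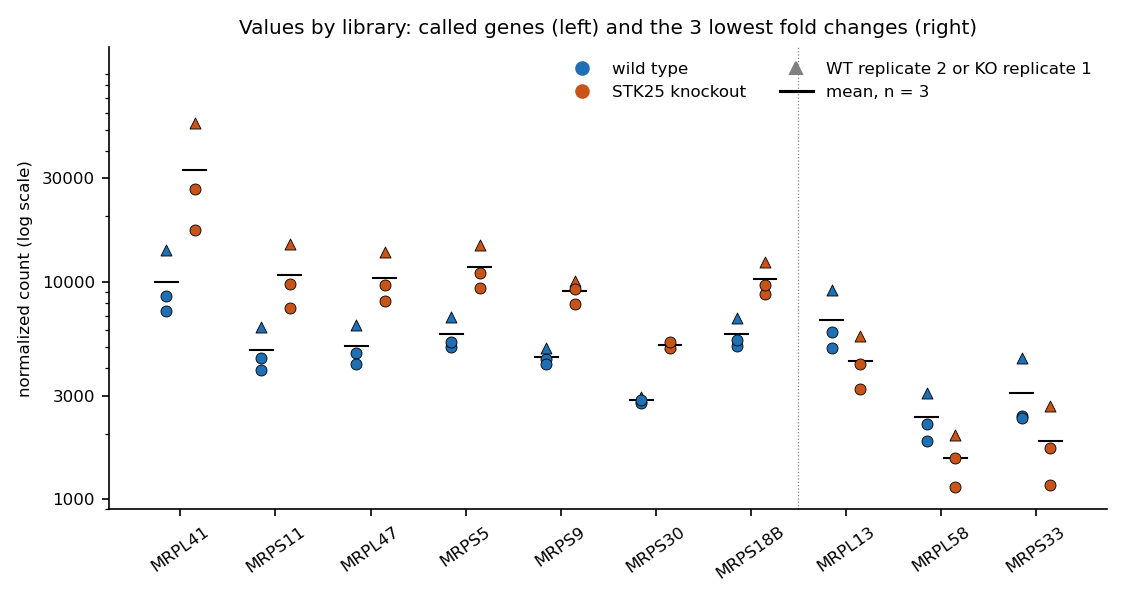
Normalized counts on a log axis for the 7 called genes and the 3 with the lowest fold changes, 1 point per library with the mean of 3 as a line. Triangles are wild-type replicate 2 and knockout replicate 1, which top their genotype in 9 of the 10 genes drawn. The genotypes overlap in the 3 genes on the right and in none on the left.

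The calls rested on few replicates. Leaving out wild-type replicate 1 or 3, or knockout replicate 3, gave 0 calls among the 78 genes, where 5.11%, 5.87% and 6.18% of all genes were called. Without knockout replicate 1 the calls were MRPS30, MRPS5 and MRPS9, where 14.2% of all genes were called. Over 18 other settings of the analysis MRPS9 was called in 14, MRPS30 in 13, MRPS5 in 12, MRPL47 in 10, MRPL41 in 8 and MRPS11 and MRPS18B in 6 each. All 7 kept a positive fold change in all 18, equal totals included. Changes to the filter, eBayes or the block leave a fold change as it was, so the sign could not differ there. Equal totals shift nearly all fold changes by the same amount.

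Other genes with large fold changes missed the threshold. MRPS12, the counterpart of bacterial S12 at the decoding centre, had 4604, 7919 and 3939 normalized counts in the wild type and 19062, 9256 and 10814 in the knockout. Its genotypes did not overlap, and its log2 fold change of 1.24 (SE 0.35) had a limma adjusted p of 0.0591. MRPS15 had 5854, 8195 and 5396 and then 20166, 9089 and 12471, also without overlap (1.05, SE 0.32, limma adjusted p = 0.0724). MRPL14 had 6842, 11417 and 6463 and then 29262, 10087 and 13581 (1.00, SE 0.41, limma adjusted p = 0.165). In MRPL14 wild-type replicate 2 exceeded knockout replicate 2, so the genotypes overlapped. MRPS36, the dehydrogenase component, had 2636, 5548 and 2525 and then 9718, 3739 and 4857 (0.75, SE 0.43, limma adjusted p = 0.307). Without both libraries that stood apart, MRPS12 was 1.23, MRPS15 0.92, MRPL14 0.82 and MRPS36 0.72.

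None of the 78 genes was called lower. The lowest fold change was that of MRPS33, a small-subunit protein specific to mitochondria, with 2418, 4481 and 2374 normalized counts in the wild type and 2676, 1160 and 1732 in the knockout. Knockout replicate 1 lay above wild-type replicates 1 and 3, and the log2 fold change was -0.75 (SE 0.37, limma adjusted p = 0.236). It was -0.76 without both of the libraries that stood apart. MRPS33 lies on chromosome 7 from 141002610 to 141015228. Of the 95 genes tested between 140 and 160 Mb of that chromosome, 83 had negative fold changes and 35 were called lower, with a median of -1.04. Over all genes tested 7705 of 15536 had negative fold changes and 6.79% were called lower. The part of this region in the fold change of MRPS33 was not tested. The other family members on chromosome 7 had positive fold changes that were not called: MRPS24 0.53 (SE 0.37), MRPS17 0.48 (SE 0.34) and MRPL32 0.45 (SE 0.32), with limma adjusted p-values of 0.403, 0.419 and 0.417.

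MRPL58, a peptidyl-tRNA hydrolase that releases chains from stalled mitoribosomes as well as a subunit of the large particle, had 2228, 3074 and 1854 normalized counts in the wild type and 1987, 1140 and 1544 in the knockout. Knockout replicate 1 lay above wild-type replicate 3, and the log2 fold change was -0.62 (SE 0.28, limma adjusted p = 0.201). MRPL13, the counterpart of bacterial L13, had 5903, 9158 and 4983 and then 5621, 3226 and 4191 (-0.61, SE 0.30, limma adjusted p = 0.235). The next were MRPS26 (-0.40, SE 0.32), MRPL36 (-0.36, SE 0.45), MRPL54 (-0.36, SE 0.37), MRPL48 (-0.36, SE 0.24) and MRPL1 (-0.34, SE 0.24), with limma adjusted p-values from 0.397 to 0.668. All 5 overlapped between genotypes. Without both libraries that stood apart, MRPL58 was -0.61, MRPL13 -0.56, MRPS26 -0.43, MRPL36 -0.41, MRPL54 -0.47, MRPL48 -0.41 and MRPL1 -0.27. When the libraries were scaled to equal totals, MRPL13 and MRPL58 were called lower (limma adjusted p = 0.0498 and 0.0434), where 9.38% of all genes were.

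Over the whole family 60 of 78 fold changes were positive, with a median of 0.24, beside 7831 of the 15536 genes tested and a median of 0.0052. Equal totals lowered the median of all genes to -0.27 and that of the family to -0.04, so the sign of the family median depends on the scaling. This setting shifts nearly all fold changes by the same amount, so it could hardly change the distance between these medians. Knockout libraries lay wholly above the wild type in 14 members (17.9%, against 16.2% of all genes). They lay wholly below in 2 members (2.56%, against 17.2%), MRPL30 and MRPS2. MRPL30 had 1840, 1737 and 1733 normalized counts and then 1688, 1529 and 1685 (log2 fold change -0.12, limma adjusted p = 0.727). MRPS2 had 3802, 4187 and 3778 and then 3246, 3287 and 3284 (-0.26, limma adjusted p = 0.361). Fold changes lay within 0.5 of zero on the log2 scale in 54 members.

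The particles were described separately. The median log2 fold change was 0.44 for the small particle, with 22 of 26 positive and 4 called, and 0.19 for the large particle, with 37 of 51 positive and 3 called. Without both libraries that stood apart the medians were 0.42 and 0.18, and with equal totals 0.16 and -0.09. Without knockout replicate 1 they were 0.24 and -0.0081, so the large-subunit median was near 0 without that library. The 16 small-subunit genes with bacterial counterparts had the highest median, 0.51 (3 called), and the 10 small-subunit genes specific to mitochondria had 0.23 (1 called). In the large particle the 30 with bacterial counterparts had 0.23 (1 called) and the 21 specific to mitochondria 0.15 (2 called). All of these calls were in the higher direction, in which 5.97% of all genes tested were called (12.8% in either direction). No test compared these classes or their numbers of calls.

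The 2 libraries that stood apart did so across nearly the whole family. Among the wild-type libraries replicate 2 was highest in 72 of 78 genes, beside 41.5% of all genes tested, and among the knockout libraries replicate 1 was highest in 68, beside 41.6%. In 65 genes both held. The median difference on the log2 scale from the other 2 libraries of the genotype was 0.59 for wild-type replicate 2 and 0.68 for knockout replicate 1, and for all genes -0.0001 and -0.013. Knockout replicate 1 was the highest of all 6 libraries in 54 genes and wild-type replicate 2 in 17. The cause of this difference between replicates was not tested.

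It varied with transcript length. Member transcripts are short, with a median annotated length of 1137 bases (over the coding transcripts of each gene), against 2470 for all genes tested with a length. In the 26 shortest transcripts of the family (461 to 978 bases) the median differences were 0.80 in wild-type replicate 2 and 1.09 in knockout replicate 1. In the 26 of middle length (981.5 to 1462 bases) they were 0.58 and 0.67, and in the 26 longest (1483 to 3332 bases) 0.41 and 0.38. Across the 78 genes, which share these libraries and are not independent, Spearman's rho between length and the difference was -0.54 and -0.49, and rho between the differences of both libraries was 0.90. The 26 longest held 5 of the 7 called genes, those of middle length 2 and the shortest 0. Median standard errors were 0.21, 0.29 and 0.37 in that order. Median log2 fold changes were 0.22, 0.40 and 0.29, and rho between length and fold change was 0.03. Over all lengths 12.8% of the genes tested were called. Shares of all genes at matching lengths were not computed, so the split of calls was not read as an effect of length.

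**Figure D3:**
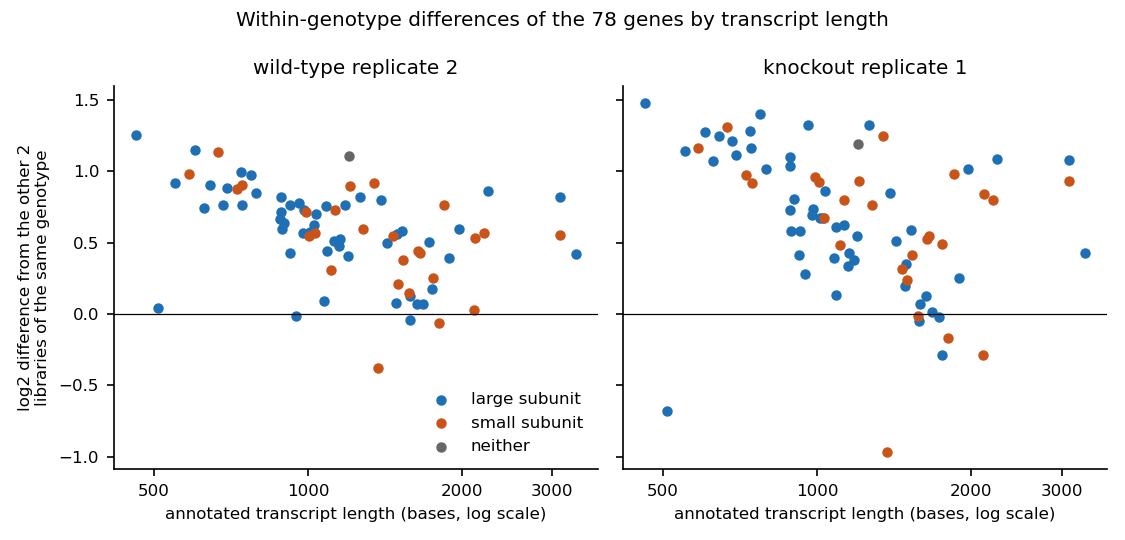
Each point is 1 of the 78 genes. The horizontal axis is annotated transcript length in bases on a log scale and the vertical axis the log2 difference of wild-type replicate 2 (left) or knockout replicate 1 (right) from the other libraries of its genotype. Most points are above 0, and the short transcripts are highest, with rho of -0.54 and -0.49.

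A few genes went against this pattern and are named here because of their values. MRPS27, a small-subunit protein of the pentatricopeptide repeat family, had 3169, 2635 and 3693 normalized counts in the wild type and 2273, 4818 and 4078 in the knockout, so that both libraries were the lowest of their genotype. MRPL49 had 3587, 3653 and 3512 and then 3028, 4492 and 5244, with knockout replicate 1 below all wild-type libraries. Their log2 fold changes were 0.18 and 0.21 with all libraries and 0.37 and 0.45 without both. MRPL10 was -0.17 with all libraries and 0.0080 without both.

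With both libraries left out the fold changes of the family were close to those with all 6. Pearson's r across the 78 genes was 0.98, where both sets share 4 libraries, and 5 genes changed sign (MRPL3, MRPL10, MRPL24, MRPL37 and MRPL53). The family median was 0.26. Calls numbered 29 of 78 (37.2%, against 30.6% of all genes), of which 26 were higher and 3 lower (MRPS33, MRPL58 and MRPL13). This count comes from 2 libraries per genotype chosen after the data were seen, which lowers the spread by construction. Removing each library's trend over transcript length, also chosen after the data were seen, left a family median of 0.22 and gave 20 calls, 16 higher and 4 lower, with 19.6% of all genes called.

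**Figure D4:**
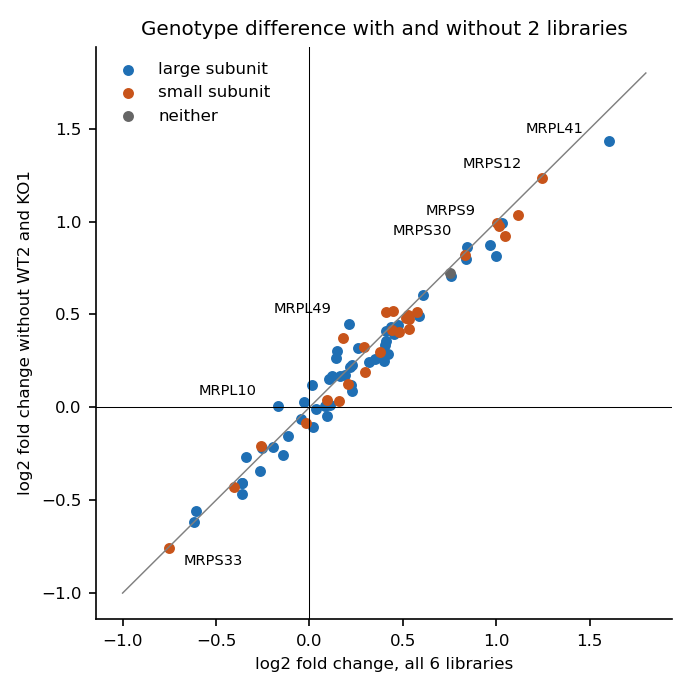
Each point is 1 of the 78 genes, with the log2 fold change from all 6 libraries on the horizontal axis and that without wild-type replicate 2 and knockout replicate 1 on the vertical axis. Points lie along the diagonal line of equal values (Pearson's r 0.98), and MRPL49 and MRPL10 lie above it.

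Levels between genes were compared as mean normalized counts per kilobase of annotated transcript. The highest were MRPL51 (22554 per kilobase), MRPL33 (20408) and MRPL41 (16869), and the lowest MRPL1 (938), MRPL50 (984) and MRPL30 (1075). The median of the family was 4107, with 4058 for large-subunit and 4631 for small-subunit genes. MRPL51 and MRPL33 have among the shortest transcripts of the family, 551 and 461 bases. Both had knockout replicate 1 as the highest library and wild-type replicate 2 next, at 21913 and 15803 normalized counts for MRPL51 and 18884 and 12881 for MRPL33. Their log2 fold changes were 0.32 and 0.41 (limma adjusted p = 0.664 and 0.668), and both turned negative without knockout replicate 1. That of MRPL50 was 0.22 (limma adjusted p = 0.584), and -0.06 with equal totals.

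Reads of some members cannot be assigned with certainty, because exons of 34 members overlap those of another annotated gene. Whether counting used strand is not stated, and strand would not resolve overlaps on the same strand, such as that of MRPS16 with DNAJC9. Among the called genes, MRPL47 overlaps ACTL6A on the other strand, whose mean was 2174 normalized counts, MRPS11 overlaps AC013489.3 and MRPS9 overlaps UTAT33. MRPS12 overlaps SARS2, the mitochondrial seryl-tRNA synthetase gene, with a mean of 2004. Of the 76 pseudogene rows 51 had no read, and 4 passed the filter on low values: MRPS31P5 (360 normalized counts), MRPL45P2 (151), MRPS31P4 (131) and MRPS17P1 (13.9). None belongs to a called gene.

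Many members share a promoter region with a gene on the other strand. By GENCODE gene starts, a second gene started within 1000 bases in the opposite direction in 29 members. In 18 of the 28 distinct pairs with both genes tested the fold changes had the same sign. No share over other gene pairs was computed, so this count was not read as an effect of shared promoters. Positive fold changes were found in 60 of the 78 members and 7831 of the 15536 genes tested. MRPS11 and MRPL46, a large-subunit gene, start 34 bases apart, and their log2 fold changes were 1.11 and 0.48 (SE 0.28, limma adjusted p = 0.326 for MRPL46). MRPL47 starts 36 bases from NDUFB5, a complex I subunit gene, which had 0.51 (SE 0.30, limma adjusted p = 0.328). SARS2, paired with MRPS12, had 0.0032 (SE 0.22). Of the partners 3 were called, where 12.8% of all genes tested were. All 3 were higher: MRPS11 itself, TMEM63B beside MRPL14 (1.77, SE 0.38, limma adjusted p = 0.0214) and SLC7A7 beside MRPL52 (2.21, SE 0.42, limma adjusted p = 0.0142).

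The mitoribosome also has subunits under other symbols, and 5 were listed. DAP3, a GTP-binding protein of the small particle, had 6394, 6457 and 6313 normalized counts in the wild type and 10010, 9058 and 10634 in the knockout. Like MRPS30 it varied little within genotypes, and it was called higher, with a log2 fold change of 0.63 (SE 0.17, limma adjusted p = 0.0491). The others were positive and not called: AURKAIP1 0.61, CHCHD1 0.52 and PTCD3 0.43 of the small particle and GADD45GIP1 0.31 of the large one, with limma adjusted p-values from 0.313 to 0.623.

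Of 28 genes for mitoribosome assembly, 3 were called higher and 0 lower, with a median log2 fold change of 0.06. Of all genes tested 5.97% were called higher and 6.79% lower (12.8% in either direction), shares that apply beside the lists below too. No test compared the lists with all genes. MPV17L2, an inner membrane protein needed for assembly, rose from 1993 ± 71.0 to 3956 ± 396 normalized counts (SD, 3 libraries each; 0.98, SE 0.17, limma adjusted p = 0.0107). MRM2, which methylates the large rRNA, rose by 0.75 (SE 0.17, limma adjusted p = 0.0291), and GTPBP10, an assembly GTPase, by 0.99 (SE 0.25, limma adjusted p = 0.0425). Of 15 translation factors tested 2 were called, both higher and both release factor genes, with a list median of 0.29. MTRF1L rose from 1328 ± 47.2 to 2619 ± 187 (SD, 3 libraries each; 0.98, SE 0.17, limma adjusted p = 0.0109) and MTRF1 by 0.83 (SE 0.22, limma adjusted p = 0.0473).

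Mitochondrial tRNA synthetases had a median of -0.24 (0 of 16 called) and genes for transcription and maintenance of mitochondrial DNA 0.20 (0 of 11 called). Among 10 regulators of mitochondrial biogenesis, with a median of 0.18, MYC was the gene called. This growth-promoting transcription factor rose from 44.2 ± 18.3 to 604 ± 115 normalized counts (SD, 3 libraries each), a difference of 3.80 on the log2 scale (SE 0.37, limma adjusted p = 0.000968). The regulators named after the motifs above were not called, with log2 fold changes of 0.15 for NRF1 (SE 0.36), -0.60 for GABPA (SE 0.31) and 0.19 for YY1 (SE 0.32).

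The mRNAs that the mitoribosome translates, nuclear respiratory chain genes and cytosolic ribosomal protein genes were set beside the family. The 13 mRNAs of the mitochondrial genome had a median of -0.15 with 0 called. Nuclear respiratory chain subunits had 0.61, with 77 of 82 positive, 1 called higher and 1 lower. Cytosolic ribosomal proteins had 0.12, with 58 of 84 positive, 0 called higher and 2 lower. With equal totals these medians were -0.43, 0.33 and -0.16. The differences of wild-type replicate 2 and knockout replicate 1 from their groups were larger in these lists than in the family, with medians of 1.39 and 1.88 for the mitochondrial mRNAs, 0.99 and 1.21 for the respiratory chain and 1.06 and 1.28 for the cytosolic ribosomal proteins. Median transcript lengths of these lists were 784, 734.5 and 764.25 bases, shorter than that of the family. The mitochondrial mRNAs had the longest of these medians and the largest differences. The part of transcript length in the differences between lists was not tested.

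**Figure D5:**
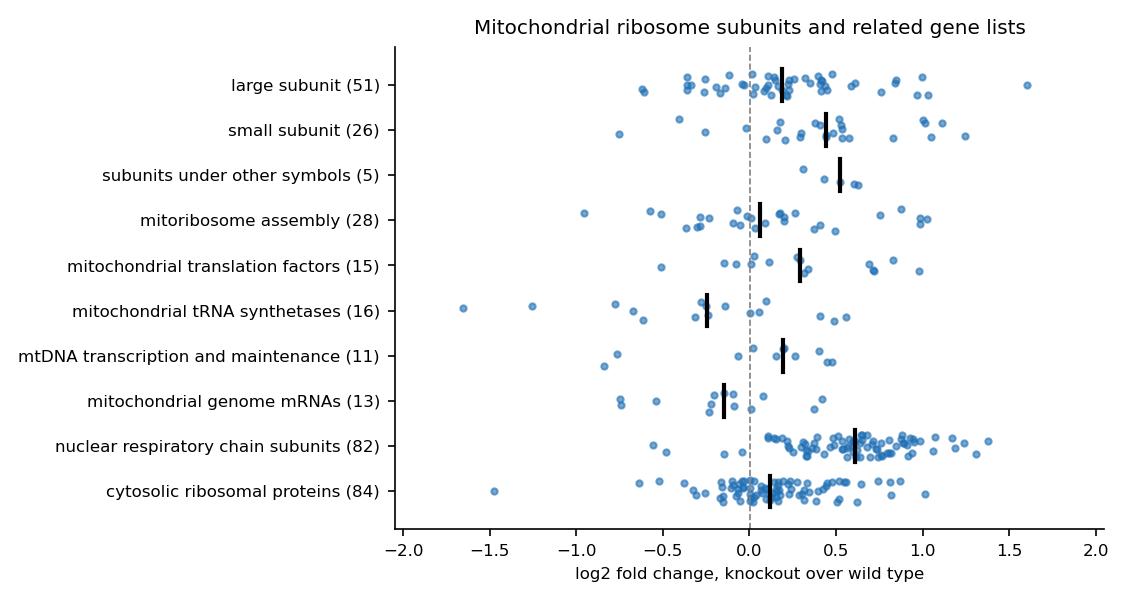
Each point is 1 tested gene, placed by its log2 fold change of knockout over wild type, with the median of its list as a bar and the number of tested genes in brackets. Medians run from -0.24 for the tRNA synthetases to 0.61 for the nuclear respiratory chain, and 3 genes beyond 2 log2 units are not drawn.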

How the data were processed

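The authors deposited 1 table of normalized counts, a signal with 1 value per gene symbol for 3 wild-type and 3 knockout libraries. Tested against a common step per library, 100% of the values were whole reads (tolerance 0.01). Libraries were made with Clontech Ultra Low v4 and NexteraXT, per the labels' protocols. bcl2fastq 2.19, kallisto 0.44.0, DESeq2 1.28.1 and GRCh38 are listed, with no role, per the submitters' processing notes. The annotation and use of strand are not given in the sources used here. 0 columns were left unused.

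Genes with a mean of at least 10 were tested with limma 3.58.1 (lmFit, eBayes with a trend, two-sided) in R 4.3.3 on log2(value + 1), with Benjamini-Hochberg adjustment over all 15536 genes and a threshold of 0.05. All 78 members passed the filter, the lowest with 696 reads in a library. Fold changes are on that scale. The fit was also run on simulated counts, drawn for each gene independently. They lacked the difference that wild-type replicate 2 and knockout replicate 1 share, so they cannot show how the fit behaves under it. Replicates of a genotype differed by more than counting error, with a chi-square of 19.0 to 366 per degree of freedom.

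Recovered reads were also tested with edgeR 4.0.16 and DESeq2 1.42.0. Other alternatives were other pseudocounts, filters, scalings and eBayes settings, a replicate block and leaving out each library. Leaving out 2 libraries and removing the length trend were chosen after seeing the data. Figures were drawn with matplotlib 3.10.9 in Python 3.11.15. Positions and lengths are from GENCODE 29, promoters from RefSeq on GRCh38.p14. A length is the median over a gene's protein-coding transcripts.

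The members, lists and rule for named genes were chosen with earlier results of these data known. Named are called members, the 8 highest and 8 lowest fold changes, the 3 highest and 3 lowest levels per kilobase, members on chromosome 7, the MRPS18 paralogs, all subunits under other symbols and called genes of the other lists. MRPS36, MRPS27, MRPL49, MRPL10, MRPS2, MRPL46, NRF1, GABPA, YY1, the partners of shared promoters and the overlapping genes were named after their values were seen.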

Additional observations from a re-analysis of the deposited data

How the results depend on the processing

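Leaving out 1 library moved the count of 7 called members to between 0 and 8. Over all genes 1982 were called, and 792 to 2192 without 1 library. The member count was 11 with DESeq2, 4 with robust eBayes and 2 without an eBayes trend. With equal upper quartiles it was 2, and with no filter on low values 3. Over all genes these settings called 3210, 1903, 1695 and 2004 of 15536, and 1780 of 24171 with no filter. Without wild-type replicate 2 and knockout replicate 1, chosen after seeing the data, the member count was 29 (against 30.6% of all genes). With the length trend removed, also chosen after seeing the data, it was 20 (against 19.6%). With the replicate number as a block 0 members were called, and 798 of 15536 genes. Deviations of same-numbered libraries from their genotype means correlated at -0.23, -0.40 and 0.17 for replicates 1, 2 and 3. The highest correlation over all pairs was 0.45, between wild-type replicate 2 and knockout replicate 1. Deviations from a genotype mean constrain each other, so these values cannot decide whether the numbers pair the libraries. The family median of 0.24 was -0.038 with equal totals and between 0.036 and 0.42 without 1 library. The large-subunit median of 0.19 was -0.091 with equal totals and between -0.0081 and 0.39 without 1 library. With equal totals MRPL50 was -0.062 and MRPS18A -0.023. Leaving out 1 library, MRPL33 ran from -0.085 to 0.83, MRPL51 from -0.059 to 0.63 and MRPL36 from -0.79 to 0.020. The other members named by the rule kept their direction in all 20 alternatives run, though several of these alternatives cannot change a fold change. The cause was not tested.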
